A study of Cricetulus griseus with 24 samples.

Results

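Heat shock chaperones of the cytosol and mitochondria were followed at the mRNA level in Chinese hamster ovary (CHO) cells, the mammalian host in which most therapeutic antibodies are made. The genes were taken by symbol from a list of 10, and 8 of them had a row among the 28037 genes of the counts table: Hsf1 (gene ID 100762942), Hsp90aa1 (100689397), Hspa8 (100689472), Hsph1 (100689462), Dnajb1 (100753924), Dnaja1 (100689381), Hspd1 (100689473) and Hspb1 (100763481). Hsp90ab1 and Hspe1 were not analysed here. All 8 genes passed the filter on low counts in every comparison.

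RNA was measured in 3 CHO lines, each sampled in exponential and in stationary phase. A0 is an antibody-producing CHO DG44 line carrying IgG and dihydrofolate reductase transgenes, and A1 is its higher-producing progeny, derived by stepwise methotrexate selection for transgene amplification. Both are therefore related DG44 producers, and A1 stands for 1 amplified line, not for amplification in general. CHO-S makes no antibody and served as the negative control, so line background and producer status cannot be told apart in any comparison with it; its library titles carry the name NDST, which the labels do not explain. There were 4 A0 cultures and 3 cultures each of A1 and CHO-S in each phase, 20 in all. The labels give numbered cultures without saying that they were grown independently, so p-values measure the spread between these samples, which may be partly technical.

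HSF1 is the transcription factor that is released from chaperones when unfolded proteins accumulate and then switches on heat shock genes. HSP70 proteins such as HSPA8 bind unfolded segments with the help of HSP40 co-chaperones (DNAJB1, DNAJA1) and nucleotide exchange factors such as HSPH1, and pass clients on to HSP90. In the mitochondrial matrix the HSP60 chamber encoded by Hspd1 folds imported proteins, and the small heat shock protein HSPB1 holds unfolded proteins in the cytosol without using ATP. Several of these genes are abundant without any heat stress, since growing cells need the chaperones for newly made proteins.

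Reads assigned to genes numbered 6532373 to 26584337 per culture apart from CHO-S stationary culture 1, which had 1038026. In that culture 32.8% of reads fell outside genes, against 11.9% to 18.4% in the other cultures. Because of its depth and this share, results that rest on it are also given without it. It was also the highest or the lowest of the 3 CHO-S stationary cultures for each of the 8 genes. Leaving out each culture in turn was planned, but this culture was singled out after the data were seen. All fits without it rest on 2 CHO-S stationary cultures, which limits their p-values. The share of reads that were not aligned differed by line and phase: 3.85% ± 0.762 (SD, n = 4) in A0 exponential, 7.93% ± 1.45 (SD, n = 4) in A0 stationary, 8.05% ± 0.577 (SD, n = 3) in A1 exponential, 10.99% ± 0.638 (SD, n = 3) in A1 stationary, 2.33% ± 0.0286 (SD, n = 3) in CHO-S exponential and 2.63% ± 0.384 (SD, n = 3) in CHO-S stationary cultures. The 2 phases did not overlap in this share in A0 (two-sided exact permutation test, p = 0.0286, the smallest that 4 against 4 cultures allow) or in A1 (p = 0.1 by the same exact test, the smallest that 3 against 3 allow), and its part in the results below was not tested. All 7 mesenchymal marker genes, among them vimentin, were present, with a summed level of 4553 to 12171 CPM (read counts scaled to a common library size), against 0 to 3.85 CPM for the 4 epithelial markers that had a row. The mesenchymal sum was 6354 to 7300 CPM in A0 exponential and 4553 to 5080.3 CPM in A0 stationary cultures, 5937 to 6728 and 5082 to 5789 CPM in A1, and 9251 to 9416 and 6330 to 12171 CPM in CHO-S. Of 5 leukocyte markers, 4 were at or under 3 counts in every culture, Ptprc among them, and so was Fshr of the 4 ovarian somatic markers with a row. The fifth leukocyte marker, the lysosomal gene Cd68, carried nearly all of the summed level of that list, which was 2.33 to 3.28 CPM in A0 exponential and 16.9 to 65.4 CPM in A0 stationary cultures, 2.78 to 3.20 and 8.26 to 11.9 CPM in A1, and 3.59 to 3.80 and 29.1 to 39.2 CPM in CHO-S. The ovarian somatic sum was 52.2 to 68.4 CPM in A0 exponential and 18.7 to 22.03 CPM in A0 stationary cultures, 26.2 to 28.8 and 16.4 to 18.9 CPM in A1, and, in the opposite direction, 33.4 to 38.1 and 54.7 to 71.6 CPM in CHO-S. The part of these differences in the results below was not tested either.

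Levels are given as CPM scaled by the TMM method of edgeR, and differences as log2 fold changes with standard error (SE). A gene was called higher or lower when the Benjamini-Hochberg adjusted p of edgeR's quasi-likelihood test, over all genes tested, was under 0.05. CPM compare 1 gene between cultures and not genes with each other, since they are not divided by gene length. In bulk RNA, fewer cells making a transcript and less transcript per cell cannot be told apart.

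**Figure D1:**
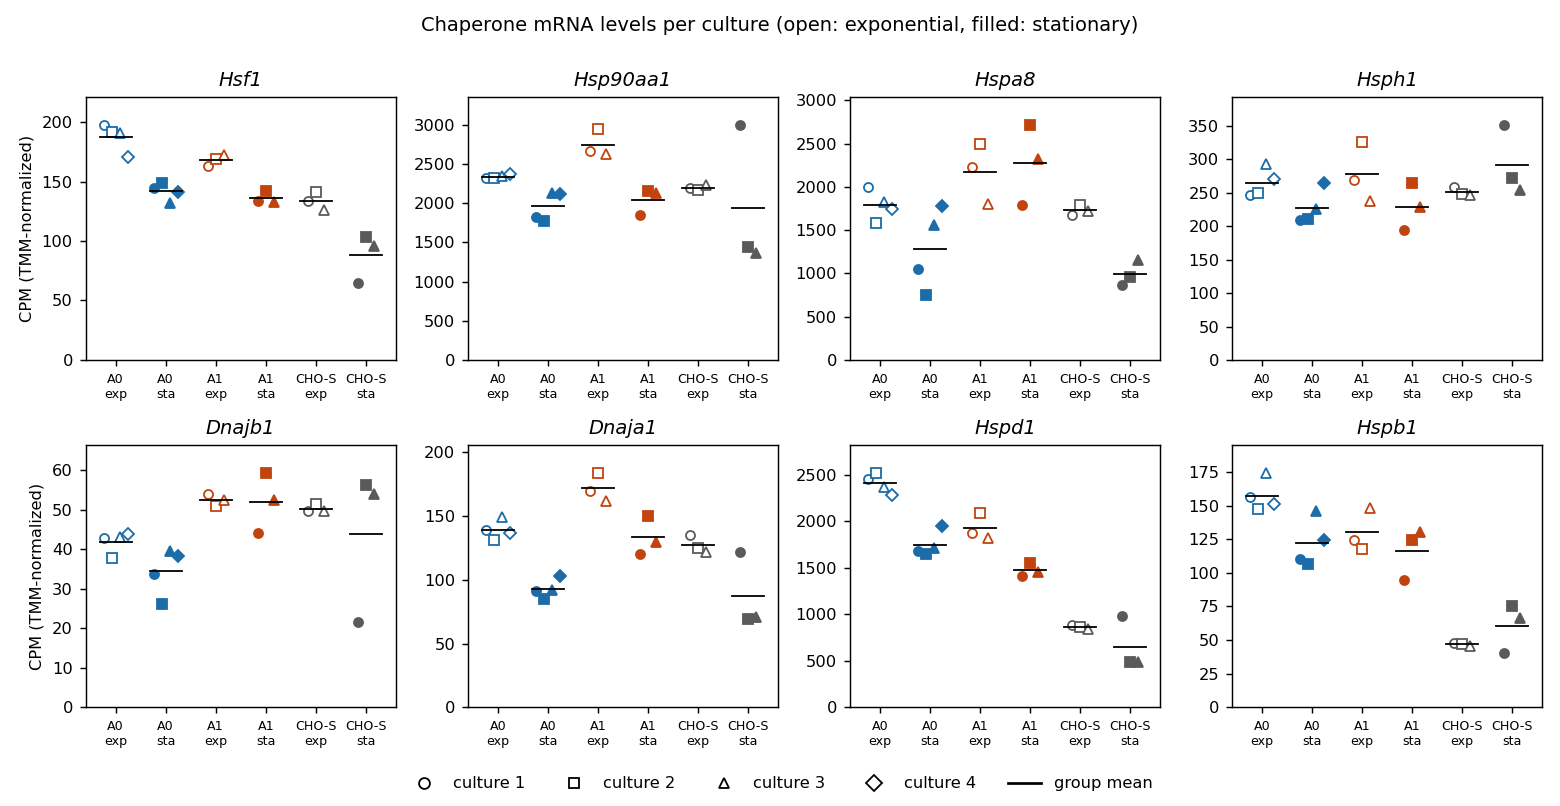
Levels of the 8 chaperone genes in each culture, in TMM-normalized CPM on axes that start at 0. Colours separate the lines, open and filled symbols the phases, symbol shapes the culture numbers, and bars mark group means; Hspd1 lies between 1409.9 and 2521 CPM in A0 and A1 cultures and between 486 and 984 CPM in CHO-S cultures, and CHO-S stationary culture 1 lies apart from its 2 replicates in most panels.

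The first question was how chaperone mRNA differed between growth phases within the parental producer A0. Stationary A0 cultures had less mRNA for the regulator Hsf1, for the HSP90 gene Hsp90aa1, for the HSP40 gene Dnaja1, for the mitochondrial HSP60 gene Hspd1 and for the small heat shock gene Hspb1. These were 5 of the 8 genes, and none was higher, where 20% of all genes tested were called lower and 17.6% higher. Among the 5345 genes tested that were at least as abundant as the least abundant of the 8, 39.1% were called lower. The median log2 fold change of the 8 genes was -0.40, against a median of 4.87e-05 over all genes.

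Hsf1 had 197, 192, 191 and 171 CPM in A0 exponential cultures 1 to 4 and 144, 149, 132 and 141 CPM in the stationary ones. Every stationary culture lay below every exponential culture, a log2 fold change of -0.42 ± 0.09 (SE, adjusted p = 0.00142). Hsp90aa1, which encodes the stress-responsive cytosolic HSP90, had 2316, 2327, 2345 and 2370.3 CPM in exponential and 1827, 1769, 2128 and 2122 CPM in stationary cultures. The exponential cultures, each summed from 2 libraries, were close together and all above the stationary ones. Their single libraries ran more widely, from 2138 to 2489 CPM. The log2 fold change was smaller, at -0.27 ± 0.10 (SE, adjusted p = 0.038). That call was lost without exponential culture 2 or 3, without stationary culture 1 or 2, and also with RLE factors (adjusted p = 0.0607), with the filter filterByExpr (adjusted p = 0.0533) and with all 6 groups in 1 edgeR fit (adjusted p = 0.231).

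The largest fall among the 8 genes in A0 was that of Dnaja1, whose product delivers clients to HSP70. It went from 139, 131, 149 and 136 CPM in exponential cultures to 91.3, 84.9, 91.9 and 103 CPM in stationary ones, with no overlap, a log2 fold change of -0.60 ± 0.09 (SE, adjusted p = 9.06e-05). Hspd1 had 2455, 2521, 2373 and 2286 CPM in exponential and 1678, 1644, 1708 and 1949.7 CPM in stationary cultures, again without overlap, a log2 fold change of -0.48 ± 0.09 (SE, adjusted p = 0.000744). Hspb1 had 156, 148, 174 and 151 CPM against 111, 106, 146 and 124 CPM. Its highest stationary culture, number 3, came within a few CPM of the lowest exponential one, and the log2 fold change was -0.38 ± 0.11 (SE, adjusted p = 0.0107).

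Hspa8, the constitutive HSP70, split the A0 stationary cultures. It had 2000.5, 1581, 1830.0 and 1747 CPM in exponential cultures 1 to 4, and 1047, 754, 1561 and 1775 CPM in the stationary ones. Stationary cultures 1 and 2 were well below all exponential cultures, whereas culture 4 lay within their range and culture 3 just under it, so that the log2 fold change of -0.49 ± 0.19 (SE) missed the threshold (adjusted p = 0.0568). In comparisons chosen after the data were seen, cultures 1 and 2 alone gave a log2 fold change of -1.004 ± 0.172 (SE, adjusted p = 0.00346) and cultures 3 and 4 alone -0.10 ± 0.099 (SE, adjusted p = 0.496). The difference between the 2 pairs was not tested. Stationary cultures 1 and 2 also had the higher shares of reads not aligned (9.41% and 8.91%, against 6.97% and 6.43% in cultures 3 and 4).

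Dnajb1, the HSP40 gene that is a classical HSF1 target, had 42.9, 37.9, 43.1 and 43.9 CPM in exponential and 33.7, 26.2, 39.5 and 38.2 CPM in stationary A0 cultures. The groups overlapped at exponential culture 2, and the log2 fold change was -0.30 ± 0.12 (SE, adjusted p = 0.0674). Hsph1, the HSP110 exchange factor, had 247, 249.9, 293 and 271 CPM against 209.6, 211, 225 and 265 CPM, with stationary culture 4 inside the exponential range (log2 fold change -0.23 ± 0.10 SE, adjusted p = 0.0898). Same-numbered A0 cultures of the 2 phases deviated together, as did cultures 1 and 2 on one side and cultures 3 and 4 on the other, and with the culture number as a replicate block all 8 genes were called lower, where 42.6% of all genes were called in either direction. In the blocked edgeR fit the log2 fold change was -0.56 ± 0.09 (SE, adjusted p = 1.12e-09) for Hspa8, -0.31 ± 0.10 (SE, adjusted p = 0.0075) for Dnajb1 and -0.23 ± 0.09 (SE, adjusted p = 0.0301) for Hsph1. Cultures 1 and 2 alone also called 8 genes, and cultures 3 and 4 alone called 2, Hsf1 and Dnaja1.

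In the amplified line A1, 5 of the 8 genes were lower in stationary phase and none was higher: Hsf1, Hsp90aa1, Hsph1, Dnaja1 and Hspd1. Over all genes tested, 17.8% were called lower and 15.6% higher. Among those at least as abundant as the least abundant of the 8 genes, 39.8% were called lower and 19.4% higher, 59.2% in all. The median log2 fold change of the 8 genes was -0.27, against 0.032 over all genes. Hspa8, Dnajb1 and Hspb1 were not called.

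Hsp90aa1 had 2662, 2943 and 2627 CPM in A1 exponential cultures 1 to 3 and 1850.2, 2156 and 2127 CPM in stationary ones. All stationary cultures lay below all exponential ones, a log2 fold change of -0.41 ± 0.06 (SE, adjusted p = 6.1e-07). Hspd1 had 1873, 2084 and 1824 CPM against 1409.9, 1554 and 1459 CPM, with no overlap either (log2 fold change -0.37 ± 0.05 SE, adjusted p = 1.47e-06). Dnaja1 fell from 169.5, 184 and 162 CPM to 121, 150.1 and 130.1 CPM, a log2 fold change of -0.34 ± 0.07 (SE, adjusted p = 0.000182). Hsf1 fell from 163, 169 and 172 CPM to 133, 142 and 133 CPM, a log2 fold change of -0.29 ± 0.06 (SE, adjusted p = 0.000201), again with the phases apart.

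Hsph1 was the least firm of the 5 calls in A1. It had 269, 326 and 238 CPM in exponential and 195, 265 and 228 CPM in stationary cultures, which overlapped, and the log2 fold change was -0.25 ± 0.09 (SE, adjusted p = 0.0204). Without exponential culture 2, or without stationary culture 1 or 3, it was no longer called, and neither was it in DESeq2 (adjusted p = 0.29) or in edgeR with filterByExpr (adjusted p = 0.0755). Hspa8 had 2226, 2491 and 1799 CPM in exponential and 1795, 2713 and 2325 CPM in stationary A1 cultures. Both groups covered much the same range, and the log2 fold change of 0.088 ± 0.092 (SE, adjusted p = 0.517) was not past the threshold. Dnajb1 had 53.9, 50.9 and 52.4 CPM against 44.2, 59.4 and 52.5 CPM (log2 fold change 0.024 ± 0.081 SE, adjusted p = 0.874), with stationary cultures on both sides of the exponential ones. Hspb1 had 125, 118 and 148 CPM against 94.6, 124 and 131 CPM, a log2 fold change of -0.13 ± 0.09 (SE, adjusted p = 0.261). With all 6 groups in 1 edgeR fit, which adds the spread of the CHO-S cultures, none of the 8 genes was called in A1 and 4 had an unadjusted p under 0.05, and with CHO-S stationary culture 1 left out of that fit, an alternative added after the data were seen, 4 were.

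CHO-S showed 1 called change between phases, a lower level of Hspa8, where 6.48% of all genes were called lower and 6.81% higher. Hspa8 had 1673, 1793 and 1721 CPM in exponential and 864, 958 and 1154 CPM in stationary CHO-S cultures. Every stationary culture was far below the exponential ones, a log2 fold change of -0.80 ± 0.13 (SE, adjusted p = 0.0101). That call was lost without any 1 of the 3 exponential cultures and without stationary culture 2, and it held without stationary culture 1 or 3.

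For several of the other genes in CHO-S, the size or direction of the difference depended on stationary culture 1. Hsp90aa1 had 2195, 2165 and 2229 CPM in exponential cultures and 2994, 1438 and 1368 CPM in stationary cultures 1 to 3, and Hspd1 had 881, 868 and 843 CPM against 984, 486 and 489 CPM. In both genes the shallow culture 1 lay above all exponential cultures while cultures 2 and 3 lay far below them. Dnaja1 had 135, 125 and 122 CPM against 122, 69.5 and 70.9 CPM, so culture 1 was level with the lowest exponential culture and cultures 2 and 3 were again far below. Hspb1 had 48.2, 46.8 and 45.3 CPM against 40.2, 75.5 and 66.1 CPM, and Dnajb1 had 49.6, 51.5 and 49.7 CPM against 21.7, 56.4 and 53.9 CPM. In these 2 genes culture 1 lay below the exponential cultures and cultures 2 and 3 above them.

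Without stationary culture 1, 6 of the 8 genes were called in CHO-S, where 47.7% of all genes were called in either direction. The share among genes at least as abundant as the least abundant of the 8 was not computed without this culture. With all cultures it was above the share over all genes in every comparison. Hspd1 (log2 fold change -0.82 ± 0.04 SE, adjusted p = 2.18e-32), Dnaja1 (-0.86 ± 0.06 SE, adjusted p = 1.94e-24), Hsp90aa1 (-0.64 ± 0.04 SE, adjusted p = 1.71e-27), Hspa8 (-0.71 ± 0.04 SE, adjusted p = 1.13e-26) and Hsf1 (-0.41 ± 0.05 SE, adjusted p = 2.69e-10) were lower in stationary phase. Hspb1 was higher, with a log2 fold change of 0.62 ± 0.07 (SE, adjusted p = 6.26e-14). These p-values rest on 2 stationary cultures that lay close together. Hsf1 had 134, 141 and 126 CPM in exponential cultures and 65.0, 103 and 95.8 CPM in stationary ones, which did not overlap with or without culture 1. Hsph1, with 259, 249 and 246 CPM against 351, 272 and 254 CPM, was not called in either fit, and neither was Dnajb1.

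**Figure D2:**
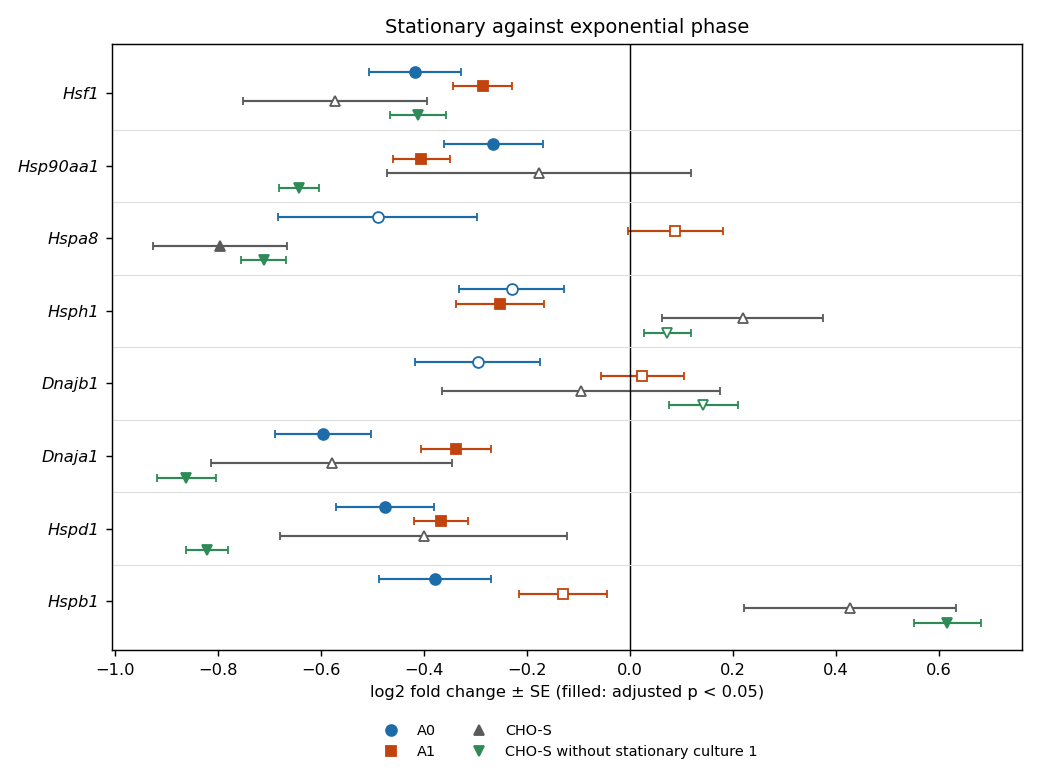
Log2 fold change of stationary against exponential phase (x axis) for each gene, with bars of 1 SE; filled symbols were past the adjusted p threshold in edgeR. A0 and A1 lie below 0 for Hsf1, Hsp90aa1, Hsph1, Dnaja1, Hspd1 and Hspb1, Hspa8 lies at -0.49 in A0, 0.088 in A1 and -0.80 in CHO-S, and Hspb1 lies above 0 in CHO-S (0.43, or 0.62 without stationary culture 1).

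Whether the phase response itself differed between lines was tested as an interaction in edgeR. Between A1 and A0 none of the 8 genes was called, where 8.92% of all genes and 17.8% of comparably abundant genes were. None of the 8 had an unadjusted p under 0.05, and DESeq2 called none. The largest of these differences was that of Hspa8, whose response was higher in A1 than in A0 by 0.54 ± 0.27 (SE) on the log2 scale (adjusted p = 0.242). With the culture number as a replicate block, where 16.4% of all genes were called, Hspa8 was called (0.60 ± 0.10 SE, adjusted p = 1.04e-07) and the other 7 genes were not, although same-numbered A1 cultures did not deviate together.

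Against CHO-S, 1 gene differed in phase response in each producer. The response of Hspb1 was lower in A0 than in CHO-S by -0.84 ± 0.23 (SE, adjusted p = 0.0227), with 10.3% of all genes called, and the response of Hspa8 was higher in A1 than in CHO-S by 0.88 ± 0.21 (SE, adjusted p = 0.0215), with 7.60% of all genes called. Of comparably abundant genes, 18.1% were called for A0 minus CHO-S and 11.3% for A1 minus CHO-S. Hspb1 was lost without any 1 of A0 exponential culture 3, A0 stationary culture 1 or 2, CHO-S exponential culture 1, 2 or 3 and CHO-S stationary culture 2 or 3. Hspa8 was lost without any 1 of A1 exponential culture 3, A1 stationary culture 2 or 3, CHO-S exponential culture 2 or 3 and CHO-S stationary culture 2. Both were called without CHO-S stationary culture 1, Hspb1 with -0.94 ± 0.15 (SE, adjusted p = 0.000143) and Hspa8 with 0.78 ± 0.11 (SE, adjusted p = 1.16e-08). Hspa8 was not called with all 6 groups in 1 fit (0.87, adjusted p = 0.0915) or with that culture left out of it (0.78, adjusted p = 0.0737).

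Leaving that culture out also added genes and turned the direction of some differences. With all cultures the difference for A0 minus CHO-S was -0.077 ± 0.262 (SE, adjusted p = 1) for Hsp90aa1 and -0.061 ± 0.247 (SE, adjusted p = 1) for Hspd1, and for A1 minus CHO-S it was -0.23 ± 0.31 (SE, adjusted p = 0.752) for Hsp90aa1. None of these was past the threshold, and all 3 were above 0 without the culture. For A0 minus CHO-S, 3 genes were called against 17.2% of all genes: the response of Hsp90aa1 was higher in A0 by 0.42 ± 0.12 (SE, adjusted p = 0.0211), that of Hspd1 was higher by 0.39 ± 0.12 (SE, adjusted p = 0.0301), and that of Hspb1 was lower. For A1 minus CHO-S, 6 genes were called against 25.4% of all genes. The response was higher in A1 for Hspa8, Dnaja1 (0.51 ± 0.09 SE, adjusted p = 1.22e-05), Hspd1 (0.44 ± 0.07 SE, adjusted p = 1.18e-06) and Hsp90aa1 (0.22 ± 0.07 SE, adjusted p = 0.0168), and lower for Hspb1 (-0.76 ± 0.11 SE, adjusted p = 9.72e-08) and Hsph1 (-0.34 ± 0.10 SE, adjusted p = 0.00624).

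The comparison of A1 with A0 asks how the amplified high producer differed from its parent, which is the contrast of the study. In exponential phase the HSP40 genes Dnajb1 and Dnaja1 were higher in A1 and Hspd1 was lower. Over all genes tested, 12% were called higher and 13.8% lower, and among genes at least as abundant as the least abundant of the 8, 17.2% were called higher and 22.3% lower. The median log2 fold change of the 8 genes was 0.15, against -0.041 over all genes.

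All 3 A1 exponential cultures lay above all 4 A0 exponential cultures for Dnajb1 (group means of 52.4 ± 1.52 CPM, SD, n = 3, and 41.9 ± 2.72 CPM, SD, n = 4) and for Dnaja1 (172 ± 11.1 CPM, SD, n = 3, and 139 ± 7.65 CPM, SD, n = 4). The log2 fold changes were 0.32 ± 0.09 (SE, adjusted p = 0.0174) for Dnajb1 and 0.30 ± 0.09 (SE, adjusted p = 0.0172) for Dnaja1. Hspd1 was at 1927 ± 138 CPM (SD, n = 3) in A1 and 2409 ± 102 CPM (SD, n = 4) in A0, without overlap, a log2 fold change of -0.32 ± 0.09 (SE, adjusted p = 0.0144). Hsp90aa1 was above A0 in every A1 culture but missed the threshold (log2 fold change 0.23 ± 0.08 SE, adjusted p = 0.0603), as did Hspa8 (0.28 ± 0.11 SE, adjusted p = 0.0879) and Hspb1 (-0.27 ± 0.10 SE, adjusted p = 0.0586), in both of which the lines overlapped. Hsf1 (-0.16 ± 0.09 SE, adjusted p = 0.201) and Hsph1 (0.067 ± 0.107 SE, adjusted p = 0.686) were further from it.

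The number called in exponential phase depended on single cultures and settings. Without A0 culture 2 or without A1 culture 1 edgeR called none of the 8 genes, with 5 and 4 of them at an unadjusted p under 0.05. Without A1 culture 2 only Hspd1 was, and without A0 culture 4 there were 6. DESeq2 with default parameters called 5 genes, adding Hsp90aa1 and Hspb1. The adjusted p ranged from 0.00343 to 0.132 for Dnaja1 over its alternatives, in every one of which the log2 fold change was above 0.

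In stationary phase 4 of the 8 genes differed between A1 and A0. Hspa8, Dnajb1 and Dnaja1 were higher in A1, and Hspd1 was lower. Over all genes 16% were called higher and 17.7% lower, and of comparably abundant genes 24.98% and 27.8%, or 52.8% in all. Of 16 HSP40 and exchange factor genes in the wider lists below, 2 were higher and 6 lower. The median log2 fold change of the 8 genes was 0.025, against -0.0021 over all genes. Hspa8 was at 2278 ± 461 CPM (SD, n = 3) in A1 and 1284 ± 467 CPM (SD, n = 4) in A0 stationary cultures, a log2 fold change of 0.82 ± 0.22 (SE, adjusted p = 0.00915). The lowest A1 culture, at 1795 CPM, was only just above the highest A0 culture, at 1775 CPM, and the wide spread of A0 noted above enters this value.

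Dnajb1 was at 52.0 ± 7.58 CPM (SD, n = 3) in A1 and 34.4 ± 6.01 CPM (SD, n = 4) in A0 stationary cultures, without overlap, a log2 fold change of 0.59 ± 0.13 (SE, adjusted p = 0.00282). Dnaja1 was at 133.6 ± 15.01 CPM (SD, n = 3) and 92.8 ± 7.55 CPM (SD, n = 4), also without overlap (log2 fold change 0.52 ± 0.09 SE, adjusted p = 0.000373). Hspd1 was at 1475 ± 73.5 CPM (SD, n = 3) and 1745 ± 139 CPM (SD, n = 4), with all A1 cultures below all A0 cultures (log2 fold change -0.25 ± 0.07 SE, adjusted p = 0.0133). Dnajb1 and Dnaja1 kept their calls without any single culture, while Hspa8 was lost without A1 culture 2, and Hspd1 without A1 culture 1 or 3. Hsf1, Hsp90aa1, Hsph1 and Hspb1 had log2 fold changes between -0.070 and 0.049 and overlapping cultures. The A0 and A1 comparisons at both phases are shown side by side in the plot of A1 against A0; every A1 group had a higher share of reads not aligned than its A0 counterpart.

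**Figure D3:**
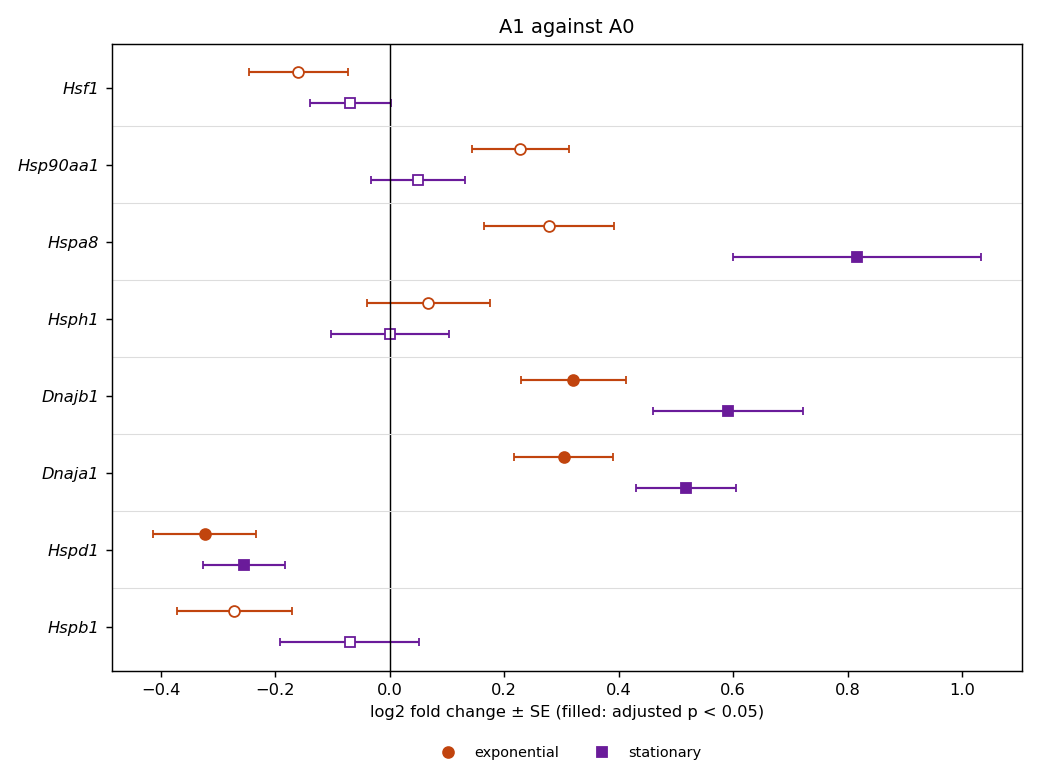
Log2 fold change of A1 against A0 (x axis) in exponential and stationary phase for each gene, with bars of 1 SE; filled symbols were past the adjusted p threshold in edgeR. Dnajb1 and Dnaja1 lie to the right of 0 and Hspd1 to the left in both phases, and Hspa8 lies at 0.28 in exponential and 0.82 in stationary phase.

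The comparison with CHO-S sets the producers beside a line that makes no antibody. In exponential phase Hspb1 and Hspd1 showed the largest differences, and Hsf1 was also higher in both producers. Hspb1 was at 157 ± 11.9 CPM (SD, n = 4) in A0, 130.3 ± 15.9 CPM (SD, n = 3) in A1 and 46.8 ± 1.44 CPM (SD, n = 3) in CHO-S, that is 3.39-fold higher in A0 (log2 fold change 1.76 ± 0.09 SE, adjusted p = 1.16e-09) and 2.78-fold higher in A1 (1.47 ± 0.07 SE, adjusted p = 1.73e-14). Hspd1 was at 864 ± 19.6 CPM (SD, n = 3) in CHO-S, 2.81-fold below A0 (log2 fold change 1.49 ± 0.08 SE, adjusted p = 2.69e-09) and 2.22-fold below A1 (1.15 ± 0.05 SE, adjusted p = 4.13e-16). For both genes the order of levels was A0, then A1, then CHO-S. Every producer culture lay far above every CHO-S culture, whereas A0 and A1 overlapped for Hspb1 and were apart for Hspd1.

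Hsf1 averaged 188 ± 11.7 CPM (SD) in the 4 A0, 168 ± 4.47 CPM (SD) in the 3 A1 and 134 ± 7.72 CPM (SD) in the 3 CHO-S exponential cultures. Its log2 fold change was 0.50 ± 0.09 (SE, adjusted p = 0.000203) for A0 and 0.33 ± 0.05 (SE, adjusted p = 3.96e-06) for A1. In A0 these 3 genes were higher and Dnajb1 was lower (log2 fold change -0.25 ± 0.09 SE, adjusted p = 0.0282), where 27.4% of all genes were called higher and 21.8% lower, and 35.02% and 32.1% of comparably abundant genes. The Dnajb1 call was lost without A0 exponential culture 2 and without each of the CHO-S exponential cultures in turn. In A1, 6 of the 8 genes were higher and none was lower, where 30% of all genes were called higher and 27.1% lower. Of comparably abundant genes 38.7% were higher and 42.3% lower, 81.0% in all, so that being called was the common case here. Beside Hspb1, Hspd1 and Hsf1 these were Dnaja1 (log2 fold change 0.42 ± 0.05 SE, adjusted p = 2.4e-07), Hspa8 (0.32 ± 0.07 SE, adjusted p = 0.000292) and Hsp90aa1 (0.32 ± 0.04 SE, adjusted p = 6.73e-07). The comparisons of A0 and of A1 share their CHO-S cultures. All A0 and A1 exponential cultures also had higher shares of reads not aligned than the CHO-S ones.

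In stationary phase the same 3 genes, Hsf1, Hspd1 and Hspb1, were higher in A0 than in CHO-S, where 20.7% of all genes were called higher and 19.3% lower (22.4% and 25.6% of comparably abundant genes), and none of the 8 was lower. Hspd1 was 2.65-fold higher (log2 fold change 1.41 ± 0.25 SE, adjusted p = 0.00125), Hspb1 1.92-fold (0.94 ± 0.21 SE, adjusted p = 0.00467) and Hsf1 1.56-fold (0.64 ± 0.17 SE, adjusted p = 0.0129). In A1 these genes and Hspa8 were higher, and none was lower, where 18.2% of all genes were called higher and 16.6% lower (17.7% and 20.97% of comparably abundant genes). Hspa8 was 2.26-fold higher in A1 (log2 fold change 1.18 ± 0.19 SE, adjusted p = 0.00182), Hspd1 2.23-fold (1.16 ± 0.28 SE, adjusted p = 0.0126), Hspb1 1.85-fold (0.88 ± 0.24 SE, adjusted p = 0.0203) and Hsf1 was higher by a log2 fold change of 0.59 ± 0.18 (SE, adjusted p = 0.0387). Leaving out 1 culture of A1, or CHO-S stationary culture 3, reduced the 4 genes called in A1 to 1 or 2, and leaving out CHO-S stationary culture 2 left 3.

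Without CHO-S stationary culture 1, 6 of the 8 genes differed between A0 and CHO-S, where 51.8% of all genes were called in either direction. Hspd1 was then higher by 1.86 ± 0.10 (SE, adjusted p = 2.09e-08) on the log2 scale, Hspb1, Hsf1, Hsp90aa1 and Dnaja1 were higher, and Dnajb1 was lower (-0.66 ± 0.14 SE, adjusted p = 0.00176). For A1, 7 of the 8 genes differed, where 57.4% of all genes were called. Dnaja1 (0.91 ± 0.08 SE, adjusted p = 1.61e-18) and Hsp90aa1 (0.52 ± 0.06 SE, adjusted p = 1.82e-11) were added to the 4 genes that were higher, and Hsph1 was lower in A1 (-0.22 ± 0.07 SE, adjusted p = 0.00596). The shares of the 8 genes called are read against these high shares over all genes. Shares of comparably abundant genes were not computed for these fits, so no excess of the 8 genes is read from them.

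**Figure D4:**
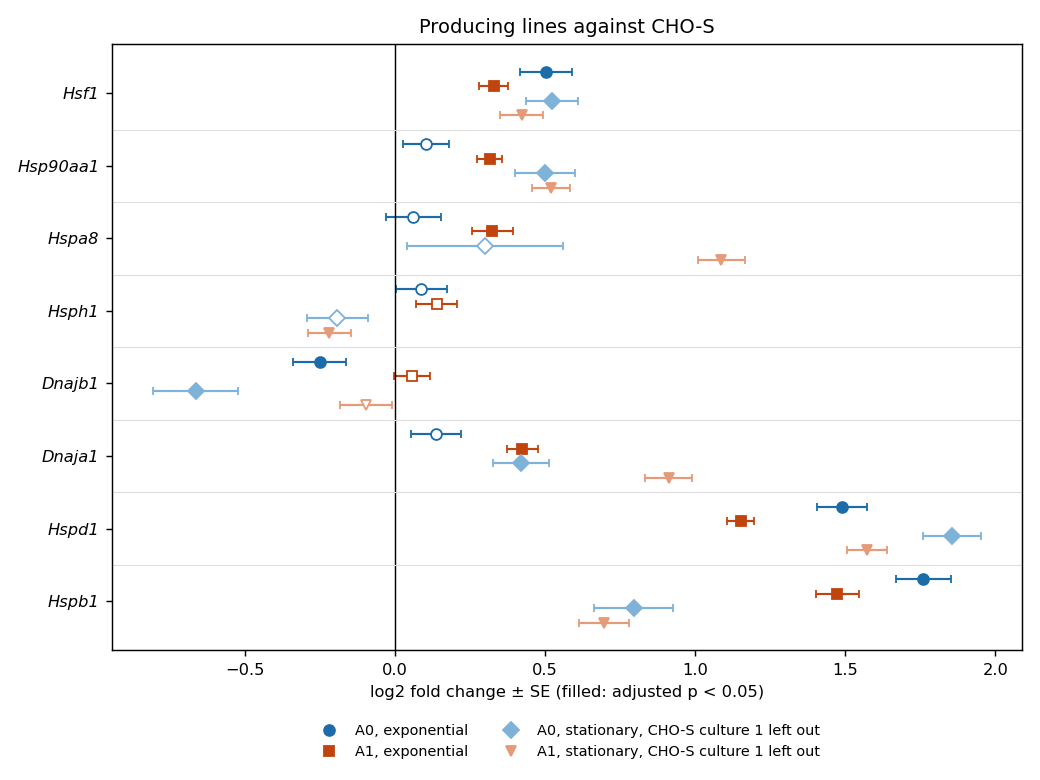
Log2 fold change of A0 or A1 against CHO-S (x axis) for each gene, in exponential phase and in stationary phase with CHO-S culture 1 left out, with bars of 1 SE; filled symbols were past the adjusted p threshold in edgeR. Hspd1 lies between 1.15 and 1.86 and Hspb1 between 0.70 and 1.76, to the right of all other genes in exponential phase.

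The genes around these chaperones were counted from 7 wider lists of 90 genes in all, of which 83 had a row. In A0, 28 of the 80 tested were lower in stationary phase and 10 were higher, beside 20% lower and 17.6% higher over all genes and 39.1% and 19.01% over comparably abundant ones. In A1 it was 29 lower and 10 higher of 78, beside 17.8% and 15.6% over all genes and 39.8% and 19.4% over comparably abundant ones. In CHO-S it was 13 lower and 1 higher of 78, beside 6.48% and 6.81% over all genes, or 46 lower and 9 higher without stationary culture 1, where 47.7% of all genes were called. The counts of single lists that follow stand beside these same shares, and nothing particular to a list is read from them. Hspa1a, a heat-inducible HSP70, was listed at 0 counts in all 20 cultures, which allows 3 counts per culture or between 0.115 and 3.10 CPM, and counts of the closely similar HSP70 genes may be lost, since reads that align to several places were not counted.

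The HSP90 co-chaperones, which load clients onto HSP90 and time its ATP cycle, were counted first. In A0, 8 of 19 were lower and none was higher, a share lower that is near the 39.1% of comparably abundant genes, among them Ptges3, the p23 co-chaperone (log2 fold change -0.57 ± 0.13 SE, adjusted p = 0.00256), and Nudc (-0.55 ± 0.09 SE, adjusted p = 0.000128). In A1, 9 were lower and 1 was higher, with Nudc at -0.47 ± 0.05 (SE, adjusted p = 2.12e-08) and Ptges3 at -0.47 ± 0.05 (SE, adjusted p = 2.17e-08). In CHO-S 5 were lower and none was higher, led by Nudc (-0.99 ± 0.17 SE, adjusted p = 0.0113) and Ahsa1, an activator of the HSP90 ATPase (-0.83 ± 0.12 SE, adjusted p = 0.00687). Without stationary culture 1, 15 were lower and 2 were higher in CHO-S. TRiC and its partner prefoldin, which fold actin and tubulin, had 5 of 14 genes lower and 2 higher in A0 (also near the share of comparably abundant genes), 10 lower and 2 higher in A1, and 6 lower in CHO-S, or 12 without stationary culture 1. The TRiC subunit genes Cct8 (-0.73 ± 0.10 SE in A0, -0.63 ± 0.06 SE in A1) and Tcp1 (-0.60 ± 0.09 SE in A0, -0.53 ± 0.05 SE in A1) had the largest differences in the producers, and Cct3 (-1.06 ± 0.19 SE) and Cct5 (-1.04 ± 0.19 SE) in CHO-S. The 2 members that were higher in each producer were the prefoldin genes Pfdn2 and Pfdn5, named after their values were seen.

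The mitochondrial chaperones and proteases moved in both directions. In A0, 6 of 14 were higher in stationary phase and 3 were lower. In A1 3 were higher and 3 lower, beside 15.6% and 17.8% over all genes and 19.4% and 39.8% over comparably abundant ones. In CHO-S 1, the mitochondrial HSP90 gene Trap1, was lower (-0.95 ± 0.18 SE, adjusted p = 0.0153). Lonp1, the matrix protease, rose from 253 to 671 CPM on average in A0 (log2 fold change 1.40 ± 0.10 SE, adjusted p = 2.86e-08) and from 279 to 467 CPM in A1 (0.76 ± 0.06 SE, adjusted p = 3.28e-12). Dnaja3, a mitochondrial HSP40, rose in A0 by 0.93 ± 0.09 (SE, adjusted p = 1.33e-06), and Clpb fell in A1 (-0.51 ± 0.06 SE, adjusted p = 8.49e-08). In both producers the matrix folding chamber Hspd1 was lower while Lonp1 was higher. Without stationary culture 1, 9 of the 14 were lower in CHO-S and 1 was higher.

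Among HSP40 proteins and HSP70 exchange factors, 6 of 16 were lower in A0 and none higher, with Bag5 (-0.69 ± 0.09 SE, adjusted p = 1.68e-05) and Dnajc9, a histone chaperone (-0.59 ± 0.15 SE, adjusted p = 0.00561), showing the largest differences among those with at least 5 CPM on average. In A1, 5 were lower, among them Dnajc2, a ribosome-bound HSP40 (-0.42 ± 0.06 SE, adjusted p = 5.04e-07), and 1, Bag3, was higher. In CHO-S Dnajb4 was higher (0.90 ± 0.19 SE, adjusted p = 0.0227) and Dnajc9 was lower (-0.66 ± 0.14 SE, adjusted p = 0.0226), and without stationary culture 1 there were 8 lower and 2 higher. Of 6 further HSP70 and HSP110 genes, Hspa14 (-1.72 ± 0.11 SE, adjusted p = 1.28e-08) and Hspa4 (-0.34 ± 0.09 SE, adjusted p = 0.0081) were lower in A0. Hspa14 (-0.81 ± 0.07 SE, adjusted p = 4.94e-11) and Hspa4 were lower in A1 and Hspa12a was higher (0.83 ± 0.13 SE, adjusted p = 4.84e-06), and edgeR called none in CHO-S, where 2 had an unadjusted p under 0.05 and DESeq2 called 2, or 2 lower and 1 higher without stationary culture 1. Hspa12a is a distant relative of HSP70.

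Other regulators differed from Hsf1. Hsf2, a second heat shock factor, was higher in stationary phase in A0 (0.40 ± 0.13 SE, adjusted p = 0.0249) and in A1 (0.26 ± 0.08 SE, adjusted p = 0.0155), where Hsf1 was lower, and Hsbp1, whose product binds HSF1 trimers, was higher in A1 (0.32 ± 0.07 SE, adjusted p = 0.000293). Hsf4 was lower in A0 (-0.57 ± 0.18 SE, adjusted p = 0.0179). In CHO-S neither edgeR nor DESeq2 called any of the 3 regulators, with 0 and 1 of them at an unadjusted p under 0.05, and 2 were higher without stationary culture 1. Of the other small heat shock genes, 3 of 8 were lower and 1 higher in A0, led by the lens protein gene Cryab (-1.42 ± 0.21 SE, adjusted p = 4.78e-05) and Hspb6 (-0.96 ± 0.18 SE, adjusted p = 0.000382). Neither edgeR nor DESeq2 called any of the 6 tested in A1 or in CHO-S, and 0 of the 6 had an unadjusted p under 0.05 in either line, while 1 was higher in CHO-S without stationary culture 1.

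**Figure D5:**
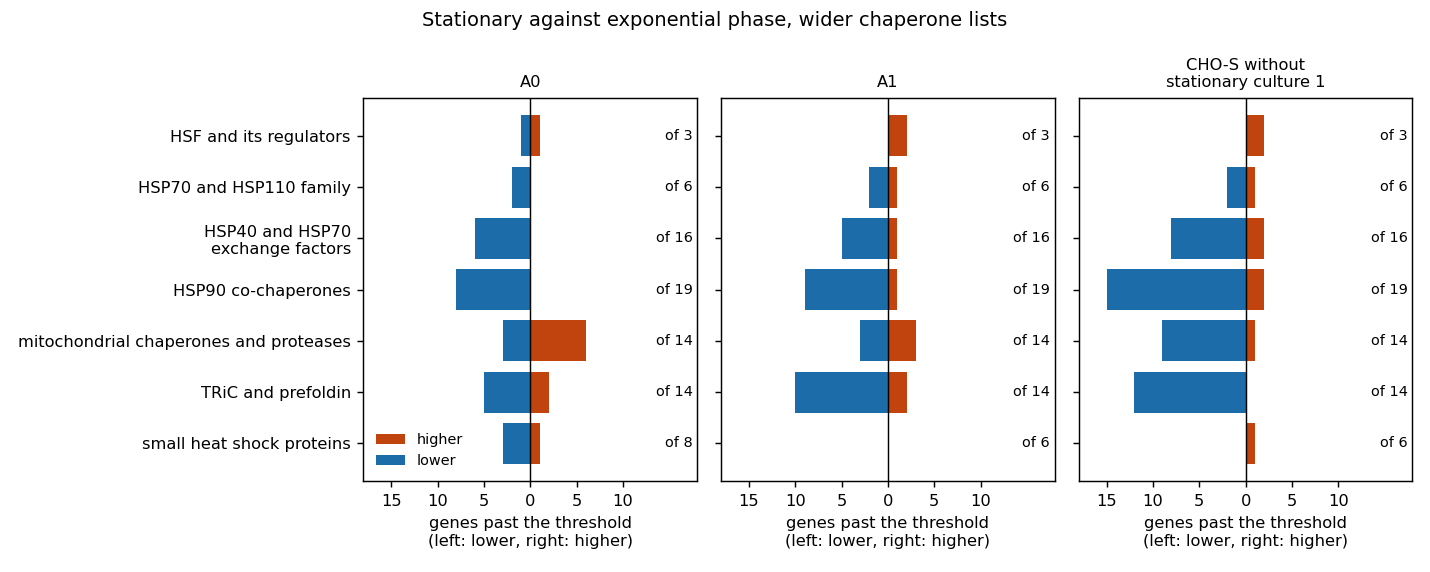
Number of genes of each wider chaperone list past the adjusted p threshold in stationary against exponential phase (x axis; bars to the left are lower and to the right higher, with the number tested beside them) in A0, A1 and CHO-S without stationary culture 1. The HSP90 co-chaperones had 8, 9 and 15 of 19 genes lower and 0, 1 and 2 higher. The mitochondrial list had 6, 3 and 1 of 14 genes higher and 3, 3 and 9 lower.

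Between A1 and A0 the wider lists had 9 genes higher and 15 lower of 80 in exponential phase, and 11 higher and 23 lower of 79 in stationary phase. Over all genes 12% were higher and 13.8% lower in exponential phase and 16% and 17.7% in stationary phase. Over comparably abundant genes it was 17.2% and 22.3%, and 24.98% and 27.8%. The lists were not cut at that abundance and neither share is matched to them, so nothing particular to the lists is read from their counts. Mitochondrial chaperones and proteases were lower for 9 of 14 genes in stationary A1 cultures and higher for 1, with Clpp (-0.65 ± 0.08 SE, adjusted p = 1.93e-05) and Lonp1 (-0.53 ± 0.08 SE, adjusted p = 0.000147) leading. In exponential phase edgeR called 1, Yme1l1, lower (-0.47 ± 0.09 SE, adjusted p = 0.00103), 3 had an unadjusted p under 0.05 and DESeq2 called 2, and the difference between the phases was not tested. The HSP90 co-chaperones were higher for 4 and lower for 2 of 19 in exponential phase, among them Cdc37l1 (-0.72 ± 0.11 SE) and Pih1d1 (0.65 ± 0.11 SE), and higher for 3 and lower for 1 in stationary phase, with Unc45a, a myosin chaperone (0.55 ± 0.10 SE), and Pih1d1 (0.47 ± 0.12 SE). HSP40 proteins and exchange factors were higher for 2 and lower for 4 of 16 in exponential phase, with Dnajc9 at -0.86 ± 0.14 (SE) and Dnajc7 at -0.60 ± 0.09 (SE). In stationary phase they were higher for 2 and lower for 6, with Dnaja2 at -0.53 ± 0.08 (SE) and Dnajc7 at -0.37 ± 0.08 (SE). Dnaja2, a close relative of Dnaja1, was lower in A1 in exponential phase as well (-0.40 ± 0.09 SE, adjusted p = 0.00319), and Dnaja1 was higher in both.

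Among the HSP70 relatives, 1 was higher and 2 were lower of 6 in exponential phase, and 2 were higher and 1 was lower in stationary phase. Hspa2 was higher in A1 in exponential (0.34 ± 0.12 SE) and in stationary phase (0.53 ± 0.12 SE), Hspa14 was lower in exponential phase (-0.74 ± 0.11 SE), and Hspa12a was higher in stationary phase (1.07 ± 0.13 SE). Hspa4, an HSP110 relative, was lower in both phases (-0.28 ± 0.09 SE, adjusted p = 0.0401, and -0.25 ± 0.08 SE, adjusted p = 0.0195). Hsbp1 was lower in A1 in both phases (-0.48 ± 0.13 SE and -0.34 ± 0.08 SE), and Hsf2 in stationary phase (-0.46 ± 0.11 SE). TRiC and prefoldin were higher for 1 and lower for 2 of 14 in exponential phase, with Pfdn1 at 0.40 ± 0.09 (SE) and Cct8 at -0.37 ± 0.11 (SE). They were higher for 1 and lower for 3 in stationary phase, with Cct7 at -0.60 ± 0.07 (SE) and Cct6a at -0.44 ± 0.07 (SE). Of the genes listed as small heat shock genes, 1 was higher and 2 were lower of 8 in exponential phase, with Hspb11, which is listed by its symbol only, at -0.91 ± 0.19 (SE). In stationary phase 2 were higher and 1 was lower of 7, with Cryab at 1.45 ± 0.21 (SE) and Hspb6 at 0.86 ± 0.16 (SE).

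The genes whose pattern over the 20 cultures was most like that of Hspd1 were Sf3b1 (Pearson r = 0.99 on log2 of CPM plus 1), Mtdh (0.98), Rbks (0.98), Usp37 (0.97) and Dcaf13 (0.96), of 8998 genes compared. Like Hspd1, Sf3b1 was highest in A0 exponential cultures, at 446 CPM on average, and lowest in CHO-S stationary cultures, at 173 CPM. For Hsph1 they were Ap4e1 (0.81), Rbbp6 (0.80), Mta3 (0.80), Arid4a (0.78) and Utp3 (0.78). All of these had their highest group mean in CHO-S stationary cultures, as Hsph1 did with the shallow culture 1 included. For Hsph1 that rank rests on culture 1, at 351 CPM. Cultures 2 and 3, at 272 and 254 CPM, lay inside the range of the A1 exponential cultures (238 to 326 CPM). Means of the other genes without culture 1 were not examined. These correlations describe cultures that share line, phase and depth.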

How the data were processed

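Poly(A) RNA libraries (TruSeq Stranded mRNA) of A0, A1 and CHO-S cultures were sequenced by the authors, aligned with STAR 2.5.4b to C_griseus_v1.0 and counted per gene with HTSeq-count 0.7.2, and the raw counts were deposited without normalization. The strand setting is not given in the sources used here, and reads that aligned to several places (12.7% to 14.8% per culture) were left out of the counts by HTSeq-count, so genes with near-identical copies are uncertain. Library sizes and tests left out the 5 HTSeq summary lines.

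Each A0 exponential culture had 2 libraries, which were summed, so 24 libraries gave 20 cultures. The second was marked RLT in cultures 1 and 2 and Duplicate in cultures 3 and 4. All other cultures had 1 library. Libraries of 1 culture differed beyond counting noise, with a chi-square per degree of freedom of 29.0, 6.38, 3.29 and 2.88 in cultures 1 to 4. In culture 1, Hspd1 had 2197 CPM in the RLT library and 2720 CPM in the other, and Hspa8 had 2271 and 1656 CPM. In R 4.3.3, edgeR 4.0.16 fitted the genes that had 1 or more counts in 2 or more libraries of a fit, using TMM factors, the two-sided quasi-likelihood test and Benjamini-Hochberg adjustment over all genes. Each fit held only the groups compared, and interactions held 4 groups. The study used DESeq2 (here 1.42.0, an alternative). Other alternatives covered RLE factors, gene filters, the samples in the fit, single A0 libraries, a replicate block and leaving out each culture. Same-numbered A0 cultures of the 2 phases correlated in their deviations (r = 0.19 to 0.44 over 4 pairs), where the pairing rule asks for over 0.1. Differently numbered ones reached 0.33, and 2 of 4 correlated best with their own number, since cultures 1 and 2 deviated together, and 3 and 4. Only there, and in the interaction of A1 and A0 that contains it, is the block printed beside a result. The code was tested on simulated data. Figures were drawn with matplotlib 3.10.9.

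The members and lists were chosen with earlier results of these data known. Of each wider list the text names the 2 genes with the largest absolute log2 fold change among those called with at least 5 CPM on average, and other genes of these lists were named after their values were seen. Gene IDs and symbols of all 8 members matched the RefSeq genes of CriGri-PICRH-1.0. Coordinates are left out because the counts were made on another build. Promoter and protein sequences were not analysed here. Some genes of the wider lists are not reported here by name.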

Additional observations from a re-analysis of the deposited data

Results flagged for a closer look

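Dnajb1 in the A0 exponential cultures stood out for 1 low culture. Culture 2 had 37.9 CPM against 42.9 to 43.9 CPM in the others, and its gap to the nearest was 0.842 of the range of the group, above the Dixon limit for 4 samples. This was 1 of 16 groups of 4 examined, where 0.8 are expected by chance.

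The phase response of Hspb1 differed between A0 and CHO-S in the interaction test of edgeR by -0.84 ± 0.23 (SE, adjusted p = 0.0227). The log2 fold change of stationary against exponential phase was -0.38 in A0 and 0.43 in CHO-S. The phase response of Hspa8 differed between A1 and CHO-S by 0.88 ± 0.21 (SE, adjusted p = 0.0215), with 0.088 in A1 and -0.80 in CHO-S. Without CHO-S stationary culture 1, the library with 32.8% of its reads outside genes, these were -0.94 and 0.78 and both past the threshold. With all 6 groups in 1 fit less that culture, the difference for Hspa8 was 0.78 (adjusted p = 0.0737) and was not called. In the interaction tests with all cultures, 10.3% of all genes were called for A0 minus CHO-S and 7.60% for A1 minus CHO-S. Of comparably abundant genes these shares were 18.1% and 11.3%.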

How the results depend on the processing

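Of the members, 5 were called for the phase response in A0. The members called were 8 with the replicate block, 8 with A0 cultures 1 and 2 alone and 2 with cultures 3 and 4 alone (both chosen after the data were seen). For the phase response in A1 the members called went from 5 to 0 with all 6 groups in 1 fit. In CHO-S they went from 1 to 2 in DESeq2, 0 with the replicate block, 4 with all 6 groups, 6 with all 6 groups less CHO-S stationary culture 1 (added after the data were seen), and 0 to 6 when 1 culture was left out. For A1 against A0 in exponential phase the 3 members called became 5 in DESeq2, 5 with filterByExpr, 6 with the replicate block, 0 with all 6 groups, 5 with A0 cultures 1 and 2 alone and 0 to 6 without 1 culture. For A0 against CHO-S in stationary phase the 3 became 5 with all 6 groups, 6 less CHO-S culture 1, 1 with A0 cultures 1 and 2 alone and 3 to 6 without 1 culture, and for A1 against CHO-S in stationary phase the 4 became 1 to 7 without 1 culture. The members called for the difference of phase response A1 minus A0 (0) became 1 with the replicate block and 2 with A0 cultures 1 and 2 alone. For A0 minus CHO-S (1) they became 3 with all 6 groups less culture 1, 0 with either A0 pair alone and 0 to 3 without 1 culture, and for A1 minus CHO-S (1) they became 0 with all 6 groups, 3 with culture 1 out of that fit (Dnaja1, Hspd1 and Hspb1, without Hspa8) and 0 to 6 without 1 culture. Calls also lost with all 6 groups in 1 fit were Hsp90aa1 (adjusted p = 0.187) and Hspa8 (0.247) for A1 against CHO-S and Dnajb1 (0.185) for A0 against CHO-S in exponential phase, and Hspd1 (0.307) for A1 against A0 in stationary phase, and with the replicate block Hsf1 against CHO-S in stationary phase in A0 (0.0548) and A1 (0.0551). The cause of these moves was not tested. RLE factors, no filter and the first A0 libraries alone kept every count within 1.5 times. Outside A0 the culture numbers of the 2 phases or lines did not pass the pairing rule (for example r = -0.15 to 0.19 in A1 over 3 pairs), and the replicate block changed no other count by over 1.5 times.

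Changes of sign were seen in differences (log2) that were not past the threshold with all cultures in the fit, 3 of which were past it in the opposite direction without CHO-S stationary culture 1 (Hsp90aa1 and Hspd1 for A0 minus CHO-S, Hsp90aa1 for A1 minus CHO-S). For the phase response, Dnajb1 in A1 was -0.0048 with all 6 groups and -0.079 to 0.11 without 1 culture, Dnajb1 in CHO-S was 0.15 with all 6 groups less CHO-S culture 1 and -0.27 to 0.14 without 1 culture, Hspa8 in A1 was -0.053 to 0.23 and Hsp90aa1 in CHO-S -0.64 to 0.021 without 1 culture. Between A1 and A0, Hsph1 was -0.026 in exponential and -0.094 in stationary phase with A0 cultures 3 and 4 alone, and -0.076 to 0.17 and -0.11 to 0.10 without 1 culture, Hspb1 in stationary phase was 0.10 with A0 cultures 1 and 2 alone and -0.17 to 0.056 without 1 culture, and Hsp90aa1 in stationary phase was -0.060 with cultures 3 and 4 alone. Against CHO-S, Hsph1 was -0.011 in A0 exponential phase with cultures 1 and 2 alone and -0.0015 to 0.23 in A1 exponential phase without 1 culture. In stationary phase Hsp90aa1 in A0 was -0.11 and Hspa8 -0.14 with cultures 1 and 2 alone. Without 1 culture Hsp90aa1 was -0.19 to 0.50 in A0 and -0.17 to 0.52 in A1, Dnaja1 in A0 -0.016 to 0.42, and Dnajb1 in A1 -0.10 to 0.32, or -0.086 with all 6 groups less CHO-S culture 1.

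For the difference of phase response A1 minus A0, Hspd1 was -0.038 with cultures 3 and 4 alone and Hsph1 -0.18 to 0.10 without 1 culture. For A0 minus CHO-S, Hsp90aa1 was 0.0066 with the replicate block, 0.40 with all 6 groups less culture 1, 0.022 with cultures 3 and 4 alone and -0.25 to 0.42 without 1 culture. Hspd1 was 0.0051 with the replicate block, then 0.37, 0.050 and -0.21 to 0.39 in the same order, Hspa8 was -0.18 with cultures 1 and 2 alone, and Dnaja1 was -0.092 to 0.31 without 1 culture. For A1 minus CHO-S, Hspd1 was -0.024 in DESeq2 and -0.018 with RLE factors, and -0.14 to 0.44 without 1 culture. Dnajb1 was -0.016 with RLE factors, -0.0097 with filterByExpr, -0.14 with all 6 groups less culture 1 and -0.13 to 0.17 without 1 culture, and Hsp90aa1 was 0.22 with all 6 groups less culture 1 and -0.42 to 0.22 without 1 culture. The depth of 1038026 reads in CHO-S stationary culture 1 limits what that group can show.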
